A study of Rattus norvegicus with 93 samples.

Results

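Femur bone marrow of male rats given topotecan, oxaliplatin or both was examined for 8 genes of the p53-linked stress-adaptation response: the sestrins Sesn1 and Sesn2, Ddit4, Tp53inp1, Plk2, Gadd45a, Gadd45g and Ddb2. These 8 genes were chosen by name from 7810 genes that had at least 1 probe set with a single gene symbol, and each gene was read from its probe set of highest mean over all 93 arrays. Sesn1 and Sesn2 each had another probe set, and the other 6 genes had 1. All 8 were measured, and no member was lost to a filter on low values.

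The p53 protein is a transcription factor that DNA damage stabilises. Besides arrest and death genes, it switches on genes that slow growth, clear damaged parts of the cell and adjust repair while damage is dealt with. Sestrins and Ddit4 (REDD1) hold back the growth kinase mTORC1, Tp53inp1 acts in autophagy and apoptosis, Plk2 is a polo-like kinase of the early stress response, the Gadd45 proteins bind cell cycle and stress kinases, and Ddb2 recognises damaged DNA for nucleotide excision repair. Bone marrow divides quickly, and loss of its dividing precursors is the usual dose-limiting effect of topotecan.

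The study used Sprague-Dawley males of 8 weeks, each given 2 short intravenous infusions, and took marrow from the left femur 1, 6 or 24 h after dosing was complete. Group names give the first infusion and then the second. The dose of topotecan, a topoisomerase I inhibitor, was 4.7 mg/kg. That of oxaliplatin, whose platinum forms links within DNA, was 15 mg/kg. Single agents were topotecan/D5W, D5W/topotecan, oxaliplatin/NaCl and NaCl/oxaliplatin, the combinations were topotecan/oxaliplatin and oxaliplatin/topotecan, and the vehicle groups were NaCl/D5W and D5W/NaCl, where D5W is dextrose in water and NaCl is saline. Each of the 24 groups held 4 rats, except for 3 in topotecan/D5W at 24 h, oxaliplatin/NaCl at 6 h and D5W/NaCl at 24 h. All rats carried a femoral vein cannula, the vehicle rats included, and each drug was given at 1 dose level. Marrow was measured in bulk, so fewer cells of a type and less RNA per cell cannot be told apart.

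Values are log2 array signals, 1 array per rat, and a difference of 1 is a doubling. The array medians lay between 8.79 and 9.30. Marrow markers were bright: haemoglobin gene Hbb averaged 15.3 and the granulocyte gene S100a9 averaged 14.8 on the log2 scale, against 4.58 for the muscle gene Myh4. In 3 arrays (rats 41 and 42 of oxaliplatin/NaCl at 24 h and rat 52 of topotecan/oxaliplatin at 6 h) skeletal muscle genes stood more than 3 log2 units above the median array. Each treatment was set against the vehicle of the same infusion order and time, so that topotecan/D5W, topotecan/oxaliplatin and NaCl/oxaliplatin share NaCl/D5W, and D5W/topotecan, oxaliplatin/topotecan and oxaliplatin/NaCl share D5W/NaCl. A gene was called changed at a limma p under 0.01 after Benjamini-Hochberg adjustment over 12532 probe sets.

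RefSeq promoters (build GRCr8) were matched by gene ID for 6 of the 8 genes, and the 250 bases before the start site were searched on both strands. The 4 shown belong to genes whose 1 h responses are described next, with matches in capitals. In Plk2 (chr2:43702286-43702535, + strand) the capitals are a cAMP response element, TGACGTCA. In Sesn2 (chr5:150005256-150005505, - strand) they are CCAAT boxes read on the other strand. In Ddit4 (chr20:28437038-28437287, - strand) they are the hypoxia element core, ACGTG, and a pair of CCAAT boxes, also on the other strand. In Gadd45a (chr4:97486800-97487049, - strand) they are a CCAAT box and, nearer the start, a p53 half-site.
Plk2: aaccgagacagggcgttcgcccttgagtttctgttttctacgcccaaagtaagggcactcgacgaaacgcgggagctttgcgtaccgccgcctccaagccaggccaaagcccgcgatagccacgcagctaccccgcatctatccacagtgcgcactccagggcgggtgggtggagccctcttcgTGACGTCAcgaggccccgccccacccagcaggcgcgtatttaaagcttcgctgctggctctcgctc
Sesn2: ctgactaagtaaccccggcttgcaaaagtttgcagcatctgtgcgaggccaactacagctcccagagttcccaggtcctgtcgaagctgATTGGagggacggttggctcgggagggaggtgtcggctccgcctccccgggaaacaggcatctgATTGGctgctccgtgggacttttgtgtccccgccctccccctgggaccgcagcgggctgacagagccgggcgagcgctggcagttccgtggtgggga
Ddit4: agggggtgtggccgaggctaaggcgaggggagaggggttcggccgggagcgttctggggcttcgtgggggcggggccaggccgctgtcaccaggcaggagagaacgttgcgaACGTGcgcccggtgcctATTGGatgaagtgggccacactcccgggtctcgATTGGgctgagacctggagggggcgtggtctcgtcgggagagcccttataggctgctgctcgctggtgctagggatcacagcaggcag
Gadd45a: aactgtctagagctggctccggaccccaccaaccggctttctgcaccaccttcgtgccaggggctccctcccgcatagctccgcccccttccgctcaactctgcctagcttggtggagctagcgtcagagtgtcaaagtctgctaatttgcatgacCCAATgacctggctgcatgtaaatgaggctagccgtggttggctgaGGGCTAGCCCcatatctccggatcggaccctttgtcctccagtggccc

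The element in Plk2 lay 66 to 59 bases before the start and the half-site in Gadd45a 48 to 39 bases before it. Sesn1 also held a p53 half-site, 172 to 163 bases before the start given for it. A p53 half-site was found in 6.64% of all 33469 promoters in windows of the same length, the cAMP response element in 1.59%, the hypoxia core in 16.6% and a CCAAT box in 34.0%. Gadd45g held a C/EBP-ATF composite match, TGATGNAA, 122 to 115 bases before its start, as 3.40% of promoters did, and a TATA box, TATAAA, as 12.9% did. AP-1, TGANTCA, was found in none of the 6 members and in 6.34% of all promoters. Longer distances were not searched, and a match is a match of letters only.

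The 8 genes fell into distinct time courses. Plk2 and Sesn2 were higher than vehicle in nearly every comparison, Ddit4, Tp53inp1 and Gadd45g in some, Gadd45a was higher at 1 h and lower at 24 h, and Ddb2 was never higher and was lower from 6 h. Over all genes, treatments and times, 65 comparisons with vehicle were higher, 17 were lower and 62 did not pass the threshold. By gene, of 18 comparisons each, Sesn2 was higher in 17, Plk2 in 16, Ddit4 in 10, Tp53inp1 and Gadd45g in 8, Gadd45a in 4 and Sesn1 in 2, while Ddb2 was lower in 10, Gadd45a in 5 and Sesn1 in 2.

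**Figure D1:**
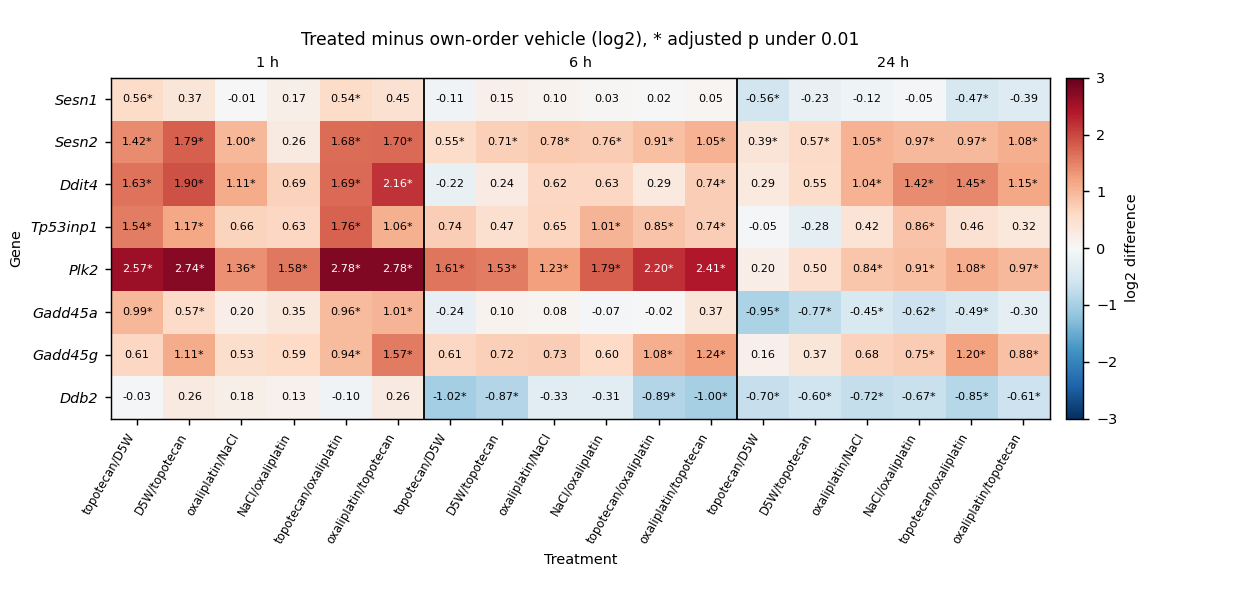
Log2 difference of each treatment from its own-order vehicle for the 8 genes (rows), by treatment and time (columns), with a star at an adjusted p under 0.01. Plk2 reached 2.78 at 1 h under both combinations, and the Ddb2 row has no called rise.

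At 1 h, 29 of 48 gene and treatment pairs were higher than vehicle and 0 were lower. Under topotecan/D5W 6 of the 8 genes were higher, where 9.18% of all probe sets were, and under D5W/topotecan 6 were, against 7.67% of all. Oxaliplatin/NaCl raised 3, against 0.575% of all, and NaCl/oxaliplatin raised 1, against 0.136%. Topotecan/oxaliplatin raised 7, against 9.77%, and oxaliplatin/topotecan raised 6, against 7.21%. The share of all probe sets that were lower was 26.0% under topotecan/D5W, 19.5% under D5W/topotecan, 0.654% under oxaliplatin/NaCl, 0.0239% under NaCl/oxaliplatin, 32.9% under topotecan/oxaliplatin and 27.6% under oxaliplatin/topotecan. The median of all probe sets shifted by -0.14 under topotecan/oxaliplatin and by -0.13 under oxaliplatin/topotecan, and a second quantile normalization brought those medians to 0.01 and 0.02. Over all comparisons with vehicle that normalization moved a member's value by between -0.13 and 0.23.

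At 6 h, 18 of 48 pairs were higher and 4 were lower. The counts of higher genes were 2 under topotecan/D5W, where 15.1% of all probe sets were higher, 2 under D5W/topotecan (14.1%), 2 under oxaliplatin/NaCl (3.78%), 3 under NaCl/oxaliplatin (5.54%), 4 under topotecan/oxaliplatin (17.0%) and 5 under oxaliplatin/topotecan (14.2%). All 4 lower values belonged to Ddb2, 1 in each treatment that held topotecan, where 25.6% of all probe sets were lower under topotecan/D5W, 20.4% under D5W/topotecan, 27.6% under topotecan/oxaliplatin and 27.5% under oxaliplatin/topotecan. Under oxaliplatin/NaCl and NaCl/oxaliplatin none of the 8 was lower, against 7.25% and 9.69% of all probe sets.

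At 24 h, 18 pairs were higher and 13 were lower. Higher genes numbered 1 under topotecan/D5W, against 16.1% of all probe sets, 1 under D5W/topotecan (18.1%), 3 under oxaliplatin/NaCl (19.6%), 5 under NaCl/oxaliplatin (24.9%), 4 under topotecan/oxaliplatin (25.9%) and 4 under oxaliplatin/topotecan (21.8%). Lower genes numbered 3 under topotecan/D5W (17.3% of all), 2 under D5W/topotecan (18.3%), 2 under oxaliplatin/NaCl (26.4%), 2 under NaCl/oxaliplatin (30.2%), 3 under topotecan/oxaliplatin (35.2%) and 1 under oxaliplatin/topotecan (33.3%).

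Cell type markers moved as well. At 24 h, 5 of 7 measured erythroid markers were lower in each of the 6 treatments, with list medians between -1.45 and -0.99 on the log2 scale. Their summed linear signal was 62600 to 67700 under topotecan/oxaliplatin and 66000 to 70600 under oxaliplatin/topotecan, against 88400 to 91500 in NaCl/D5W and 81000 to 93600 in D5W/NaCl. Of the 7 erythroid markers 1 was higher in oxaliplatin/NaCl, NaCl/oxaliplatin and oxaliplatin/topotecan. Of 8 macrophage and monocyte markers 5 to 7 were higher, and 1 was lower in every treatment except topotecan/D5W. Of 8 stroma and bone markers 3 to 6 were higher and 0 were lower. Among all probe sets 16.1% to 25.9% were higher at 24 h and 17.3% to 35.2% were lower. Of 6 granulocyte markers 0 to 3 were higher and 1 to 3 were lower. All 5 megakaryocyte markers were higher in topotecan/oxaliplatin and 0 to 3 in the other treatments, and 9 of 9 skeletal muscle markers were higher in oxaliplatin/NaCl. At 6 h 1 to 4 of 7 erythroid markers were lower, all 5 megakaryocyte markers were already higher in topotecan/oxaliplatin, 3 to 4 of 8 macrophage and monocyte markers in the topotecan-holding treatments and oxaliplatin/NaCl, and 1 to 2 of 3 B cell markers in the topotecan-holding treatments. At 1 h 2 of 3 B cell markers were lower in D5W/topotecan (median -0.83) and in oxaliplatin/topotecan (median -1.09), with summed signals of 3910 to 5730 and of 2890 to 4870, against 6510 to 8860 in D5W/NaCl. In the other treatments no B cell marker was lower at 1 h. With topotecan first the medians were 0.26 in topotecan/D5W and 0.56 in topotecan/oxaliplatin, where 1 of 3 was higher. No erythroid marker was lower at 1 h, and at most 1 was higher in any treatment. At 6 h 1 erythroid marker was higher in topotecan/D5W and both combinations, and 1 macrophage and monocyte marker was lower in topotecan/oxaliplatin. The part of these shifts in the results at any time was not tested.

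Plk2, the polo-like kinase, had the most comparisons with large rises. At 1 h its log2 levels were 8.83, 8.88, 9.22 and 9.26 in topotecan/D5W and 9.11, 9.15, 9.38 and 9.41 in topotecan/oxaliplatin, against 6.30, 6.86, 6.36 and 6.41 in NaCl/D5W. With the other order they were 9.42, 9.47, 9.41 and 9.80 in D5W/topotecan and 9.23, 9.47, 9.79 and 9.76 in oxaliplatin/topotecan, against 6.32, 6.81, 6.79 and 7.23 in D5W/NaCl. Every rat given topotecan lay above every vehicle rat. The rise was 2.57 ± 0.30 (log2 ± SE, adjusted p = 5.54e-09, limma), or 5.92-fold, in topotecan/D5W and 2.78 ± 0.30 (adjusted p = 5.68e-10), or 6.87-fold, in topotecan/oxaliplatin. In D5W/topotecan it was 2.74 ± 0.17 (adjusted p = 2.16e-15) and in oxaliplatin/topotecan 2.78 ± 0.17 (adjusted p = 8.92e-16).

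**Figure D2:**
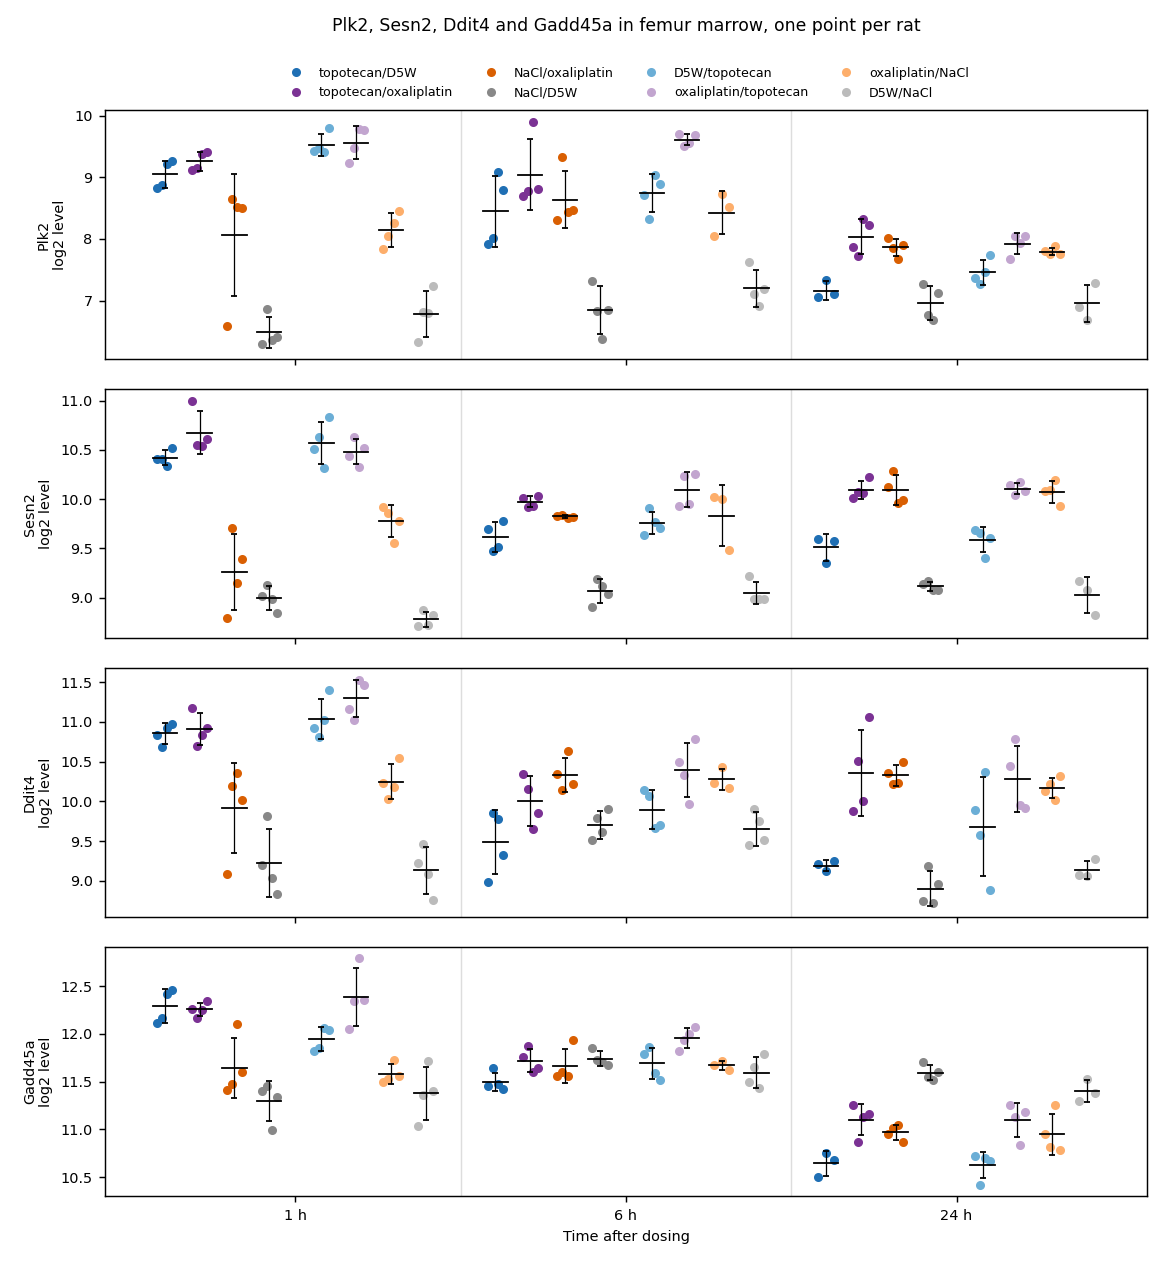
Log2 array level of Plk2, Sesn2, Ddit4 and Gadd45a in each rat (points) by treatment and time, with the group mean (line) and SD (bar); each vehicle group stands to the right of the treatments set against it. The Gadd45a panel shows all treated rats of 24 h below their vehicle rats.

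Oxaliplatin alone also raised Plk2 at 1 h. Levels were 7.83, 8.04, 8.26 and 8.45 in oxaliplatin/NaCl, all above D5W/NaCl, for a rise of 1.36 ± 0.17 (adjusted p = 1.6e-06, limma). In NaCl/oxaliplatin they were 6.59, 8.65, 8.52 and 8.50, and rat 73, at 6.59, lay within the NaCl/D5W range. The rise there was 1.58 ± 0.30 (adjusted p = 0.00572) with all rats and 2.07 ± 0.25 (adjusted p = 8.82e-07) without rat 73. That call was lost when any of rats 74, 79 or 80, or vehicle rats 1 or 7, was left out, with an adjusted p between 0.0199 and 0.0664, with the code number in the sample titles as a random block (adjusted p = 0.0224), and in a fit with its vehicle alone (adjusted p = 0.351), a fit that also ended the oxaliplatin/NaCl call (adjusted p = 0.0111). Topotecan/D5W exceeded oxaliplatin/NaCl by 1.20 ± 0.36 (adjusted p = 0.00945), while D5W/topotecan minus NaCl/oxaliplatin was 1.15 ± 0.36 and did not pass (adjusted p = 0.0109). The same rat 73 had the lowest value of its group for Sesn2 (8.79), Ddit4 (9.09) and Tp53inp1 (7.48).

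At 6 h Plk2 stayed higher in all 6 treatments, by 1.23 to 2.41 on the log2 scale. The oxaliplatin/topotecan rats were at 9.70, 9.51, 9.55 and 9.68, against 7.62, 7.10, 6.91 and 7.18 in D5W/NaCl, a rise of 2.41 ± 0.17 (adjusted p = 4.55e-14, limma). This was higher than in either single agent of that order, by 0.87 ± 0.17 over D5W/topotecan (adjusted p = 7.33e-04) and by 1.18 ± 0.19 over oxaliplatin/NaCl (adjusted p = 1.39e-05). At 24 h the topotecan single agents no longer passed, at 7.05, 7.33 and 7.10 in topotecan/D5W against 7.26, 6.76, 6.68 and 7.12 in NaCl/D5W, which overlap. The other 4 treatments were higher by 0.84 to 1.08. The NaCl/oxaliplatin call of 24 h (0.91 ± 0.30, adjusted p = 0.00871) was lost when any of 7 of its 8 rats (5, 6, 12, 77, 78, 83 and 84) was left out, with an adjusted p between 0.0106 and 0.03, and with the code number block (adjusted p = 0.0104).

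Sesn2, the sestrin that also serves as a leucine sensor upstream of mTORC1, was higher at every time in every treatment except NaCl/oxaliplatin at 1 h. At 1 h it stood at 10.41, 10.41, 10.34 and 10.52 in topotecan/D5W and at 11.00, 10.55, 10.54 and 10.61 in topotecan/oxaliplatin, against 9.02, 9.13, 8.99 and 8.84 in NaCl/D5W. It stood at 10.51, 10.63, 10.32 and 10.83 in D5W/topotecan and at 9.92, 9.86, 9.55 and 9.78 in oxaliplatin/NaCl, against 8.71, 8.87, 8.72 and 8.82 in D5W/NaCl. No rat of these 4 treatments overlapped its vehicle. The rises were 1.42 ± 0.11 in topotecan/D5W, 1.68 ± 0.11 in topotecan/oxaliplatin, 1.79 ± 0.11 in D5W/topotecan and 1.00 ± 0.11 in oxaliplatin/NaCl, with limma adjusted p between 2.14e-15 and 6.91e-08 apart from 8.92e-16 in D5W/topotecan. NaCl/oxaliplatin had 8.79, 9.71, 9.15 and 9.39 and overlapped the vehicle, with a difference of 0.26 ± 0.11 (adjusted p = 0.272).

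On the probe set of highest mean Sesn2 stayed higher in all 6 treatments at 24 h. In 1 infusion order the levels were 10.01, 10.07, 10.06 and 10.22 in topotecan/oxaliplatin, 10.12, 10.29, 9.96 and 9.99 in NaCl/oxaliplatin and 9.60, 9.35 and 9.58 in topotecan/D5W, against 9.14, 9.17, 9.08 and 9.08 in NaCl/D5W. All treated rats lay above all vehicle rats, and the topotecan/D5W rats lay below the other treated rats. The rises were 0.97 ± 0.11 (adjusted p = 1.24e-09, limma) in topotecan/oxaliplatin, 0.97 ± 0.11 (adjusted p = 2.41e-09) in NaCl/oxaliplatin and 0.39 ± 0.12 (adjusted p = 0.00856) in topotecan/D5W. The topotecan/D5W call was lost when any of rats 29, 36, 5, 6, 11 or 12 was left out (adjusted p between 0.0116 and 0.0514), and with the mean of both Sesn2 probe sets (0.32, adjusted p = 0.0296). The change of topotecan/D5W was below that of oxaliplatin/NaCl at this time, by -0.66 ± 0.17 (adjusted p = 0.00543), while D5W/topotecan against NaCl/oxaliplatin did not pass (-0.41 ± 0.16, adjusted p = 0.138). At 6 h neither drug contrast passed (-0.23, adjusted p = 0.505, and -0.05, adjusted p = 0.895).

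The change of Sesn2 was smaller at 24 h than at 1 h in the 4 treatments that held topotecan, by -1.23 ± 0.16 in D5W/topotecan at the most and by -0.62 ± 0.16 in oxaliplatin/topotecan at the least. In NaCl/oxaliplatin it was larger at 24 h, by 0.71 ± 0.16 (adjusted p = 3.13e-04, limma). The second Sesn2 probe set gave the same call as the first in 16 of 18 comparisons and 15 rises. The calls that differed were those of topotecan alone at 24 h in both orders. There the second probe set did not pass, at 0.24 (adjusted p = 0.18, limma) in topotecan/D5W and 0.16 (adjusted p = 0.282) in D5W/topotecan.

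Sesn1, the other sestrin and a long-known p53 target, moved little. In topotecan/D5W at 1 h its levels were 9.61, 9.53, 10.00 and 9.69, and in topotecan/oxaliplatin 9.51, 9.43, 10.03 and 9.81, against 9.14, 9.34, 8.99 and 9.14 in NaCl/D5W. Neither treatment overlapped the vehicle, and the rises were 0.56 ± 0.13 (adjusted p = 4.23e-04, limma) in topotecan/D5W and 0.54 ± 0.13 (adjusted p = 4.47e-04) in topotecan/oxaliplatin. In oxaliplatin/topotecan the difference was 0.45 ± 0.18 (adjusted p = 0.0367), and a second quantile normalization made it 0.62 (adjusted p = 0.00181). None of the 6 treatments passed at 6 h. At 24 h topotecan/D5W had 8.57, 8.74 and 8.79 and topotecan/oxaliplatin 8.88, 8.74, 8.52 and 8.98, against 9.44, 9.45, 9.08 and 9.04 in NaCl/D5W, now below the vehicle without overlap.

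The 24 h falls of Sesn1 were -0.56 ± 0.14 (adjusted p = 0.00108, limma) in topotecan/D5W and -0.47 ± 0.13 (adjusted p = 0.00118) in topotecan/oxaliplatin. The first was lost without rat 29 (-0.49, adjusted p = 0.013) and the second without rat 59 (-0.39, adjusted p = 0.0108). The difference between 24 h and 1 h passed in 3 treatments, at -1.11 ± 0.19 in topotecan/D5W, -1.02 ± 0.18 in topotecan/oxaliplatin and -0.84 ± 0.26 in oxaliplatin/topotecan. The second Sesn1 probe set agreed in 16 of 18 comparisons, but 14 of the 18 had not passed on the first. It did not pass in topotecan/D5W at 1 h (0.52, adjusted p = 0.0164, limma) or at 24 h (-0.59, adjusted p = 0.0118). In topotecan/oxaliplatin it passed at both times, in the same directions.

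Ddit4, an mTORC1 inhibitor that acts through the TSC complex and that hypoxia and glucocorticoids also induce, was higher at 1 h in 5 treatments and at 24 h in 4. At 1 h its levels were 10.84, 10.68, 10.92 and 10.98 in topotecan/D5W and 11.18, 10.70, 10.83 and 10.93 in topotecan/oxaliplatin, against 9.20, 9.82, 9.04 and 8.84 in NaCl/D5W. They were 11.16, 11.03, 11.53 and 11.46 in oxaliplatin/topotecan and 10.23, 10.03, 10.18 and 10.55 in oxaliplatin/NaCl, against 9.22, 9.46, 9.09 and 8.76 in D5W/NaCl. None of these treatments overlapped its vehicle. The largest rise was 2.16 ± 0.21 (adjusted p = 5.72e-11, limma), or 4.47-fold, in oxaliplatin/topotecan, and that of oxaliplatin/NaCl was 1.11 ± 0.21 (adjusted p = 9.45e-04). In NaCl/oxaliplatin the difference was 0.69 ± 0.22 (adjusted p = 0.124), and 0.96 ± 0.21 (adjusted p = 0.00862) without rat 73.

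By 6 h topotecan alone no longer held Ddit4 up: topotecan/D5W had 8.99, 9.86, 9.78 and 9.33, against 9.52, 9.79, 9.61 and 9.91 in NaCl/D5W, which overlap. The change of topotecan/D5W was smaller at 6 h than at 1 h by -1.85 ± 0.32 (adjusted p = 1.47e-05, limma), and the other 3 treatments that held topotecan gave differences of -1.67, -1.39 and -1.42 that also passed. Only oxaliplatin/topotecan was called higher at 6 h (0.74 ± 0.21, adjusted p = 0.003), and that call was lost without rat 70, 15 or 22 (adjusted p between 0.0115 and 0.0212) and with the code number block (adjusted p = 0.0165). Under oxaliplatin alone every rat lay above every vehicle rat at 6 h, with differences that did not pass, 0.62 ± 0.23 in oxaliplatin/NaCl (adjusted p = 0.047) and 0.63 ± 0.22 in NaCl/oxaliplatin (adjusted p = 0.0338), the NaCl/oxaliplatin one passing with both vehicle groups pooled (adjusted p = 0.00535) or with its vehicle alone (adjusted p = 0.00978).

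At 24 h Ddit4 was higher in all 4 treatments that held oxaliplatin. Its levels were 9.88, 10.51, 10.00 and 11.06 in topotecan/oxaliplatin and 10.36, 10.22, 10.23 and 10.50 in NaCl/oxaliplatin, against 8.75, 9.19, 8.72 and 8.96 in NaCl/D5W. In oxaliplatin/NaCl they were 10.13, 10.22, 10.02 and 10.32, against 9.08, 9.06 and 9.27 in D5W/NaCl. The treated rats lay above the vehicle rats in these groups and in oxaliplatin/topotecan. The rises were 1.45 ± 0.22 (adjusted p = 3.94e-07, limma) in topotecan/oxaliplatin, 1.42 ± 0.22 (adjusted p = 8.82e-07) in NaCl/oxaliplatin, 1.04 ± 0.23 (adjusted p = 1.98e-04) in oxaliplatin/NaCl and 1.15 ± 0.23 (adjusted p = 3.65e-05) in oxaliplatin/topotecan. Topotecan/D5W, at 9.21, 9.12 and 9.25, differed by 0.29 ± 0.24 (adjusted p = 0.338). D5W/topotecan differed by 0.55 ± 0.23 (adjusted p = 0.0447), and by 0.81 (adjusted p = 0.00208) without rat 96, whose 8.89 lay below the 9.58 to 10.37 of its group.

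The late Ddit4 rise passed the direct test of a combination against topotecan alone in 1 order. Topotecan/oxaliplatin was 1.17 ± 0.24 above topotecan/D5W (adjusted p = 1.76e-04, limma), and its change was larger at 24 h than at 6 h by 1.16 ± 0.32 (adjusted p = 0.00387). Oxaliplatin/topotecan did not pass against D5W/topotecan at 24 h. Neither direct contrast of topotecan alone with oxaliplatin alone passed for Ddit4 at 24 h.

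Tp53inp1, the autophagy and apoptosis regulator, rose early with topotecan. At 1 h it was at 8.32, 8.93, 8.82 and 9.04 in topotecan/D5W and at 8.74, 8.55, 9.35 and 9.35 in topotecan/oxaliplatin, against 7.11, 7.04, 7.10 and 7.71 in NaCl/D5W. The groups did not overlap, and the rises were 1.54 ± 0.26 (adjusted p = 4.78e-06, limma) in topotecan/D5W and 1.76 ± 0.26 (adjusted p = 3.04e-07) in topotecan/oxaliplatin. D5W/topotecan rose by 1.17 ± 0.20 and oxaliplatin/topotecan by 1.06 ± 0.20. Oxaliplatin/NaCl (0.66 ± 0.20, adjusted p = 0.0709) and NaCl/oxaliplatin (0.63 ± 0.26, adjusted p = 0.245) did not pass. Every oxaliplatin/NaCl rat still lay above every D5W/NaCl rat. The direct drug contrasts did not pass either. Topotecan/D5W minus oxaliplatin/NaCl was 0.88 ± 0.33 (adjusted p = 0.0515, limma), and D5W/topotecan minus NaCl/oxaliplatin was 0.54 ± 0.33 (adjusted p = 0.235).

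The vehicle rats of Tp53inp1 spread widely later, from 6.85 to 8.23 in NaCl/D5W at 6 h and from 6.92 to 8.06 at 24 h. At 6 h NaCl/oxaliplatin rose by 1.01 ± 0.26, topotecan/oxaliplatin by 0.85 ± 0.26 and oxaliplatin/topotecan by 0.74 ± 0.20. At 24 h only NaCl/oxaliplatin was called, at 8.68, 8.09, 8.46 and 8.11 against 8.06, 7.82, 6.92 and 7.11 in NaCl/D5W, a rise of 0.86 ± 0.26 (adjusted p = 0.00376, limma). Several of these calls were lost when 1 rat was left out. That of topotecan/oxaliplatin at 6 h was lost without rat 52, which was high in muscle genes (0.73, adjusted p = 0.0255), and without rats 58, 3 or 4 (0.80, 0.62 and 0.75). That of NaCl/oxaliplatin at 6 h was lost without any of rats 76, 82, 3 or 4, with differences of 0.79 to 0.96 remaining, and its 24 h call without any of rats 77, 83, 5 or 6, with 0.67 to 0.82 remaining. That of oxaliplatin/topotecan at 6 h was lost without rat 16 (0.64, adjusted p = 0.0144) or with the code number block (adjusted p = 0.015). In topotecan/D5W at 6 h the difference of 0.74 ± 0.26 (adjusted p = 0.0154) became 0.97 (adjusted p = 0.00229) without vehicle rat 10, and passed with the animal set, the lower or the higher animal numbers, as a block (adjusted p = 0.00508).

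Gadd45a, the p53-inducible member of the Gadd45 family of stress sensors, changed sides with time. At 1 h it was at 12.11, 12.17, 12.42 and 12.46 in topotecan/D5W and at 12.26, 12.17, 12.25 and 12.34 in topotecan/oxaliplatin, against 11.40, 11.45, 10.99 and 11.34 in NaCl/D5W. With the other order it was at 11.82, 11.85, 12.06 and 12.04 in D5W/topotecan and at 12.05, 12.34, 12.79 and 12.35 in oxaliplatin/topotecan, against 11.03, 11.36, 11.71 and 11.40 in D5W/NaCl. All rats given topotecan lay above their vehicle. The rise was 0.99 ± 0.11 (adjusted p = 1.65e-09, limma) in topotecan/D5W, 0.96 ± 0.11 (adjusted p = 2.24e-09) in topotecan/oxaliplatin, 0.57 ± 0.13 (adjusted p = 4.33e-04) in D5W/topotecan and 1.01 ± 0.13 (adjusted p = 2.37e-08) in oxaliplatin/topotecan. Oxaliplatin/NaCl differed by 0.20 ± 0.13 and NaCl/oxaliplatin by 0.35 ± 0.11, and neither passed.

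At 24 h Gadd45a lay below vehicle. Its levels were 10.50, 10.75 and 10.68 in topotecan/D5W, 11.25, 10.87, 11.13 and 11.16 in topotecan/oxaliplatin and 10.95, 11.01, 11.04 and 10.87 in NaCl/oxaliplatin, against 11.70, 11.55, 11.52 and 11.60 in NaCl/D5W. In all 6 treatments every treated rat was below every vehicle rat, and 5 of the 6 falls passed. They were -0.95 ± 0.12 (adjusted p = 3.39e-08, limma) in topotecan/D5W and -0.77 ± 0.14 (adjusted p = 1.51e-05) in D5W/topotecan, -0.62 ± 0.11 in NaCl/oxaliplatin, -0.49 ± 0.11 in topotecan/oxaliplatin and -0.45 ± 0.14 (adjusted p = 0.00521) in oxaliplatin/NaCl. Oxaliplatin/topotecan differed by -0.30 ± 0.14 (adjusted p = 0.0535). The oxaliplatin/NaCl call was lost without rat 41, 42, 48, 18 or 24 (adjusted p between 0.0105 and 0.0362), without both rats high in muscle genes (-0.38, adjusted p = 0.058), and under a second quantile normalization (-0.34, adjusted p = 0.0135). At 6 h no treatment passed for Gadd45a, but oxaliplatin/topotecan (0.37 ± 0.13, adjusted p = 0.0149) passed under that normalization (0.44, adjusted p = 0.00111) and with the animal set as a block (adjusted p = 0.0066).

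Both combinations lay above the topotecan single agent for Gadd45a at 24 h, by 0.46 ± 0.12 for topotecan/oxaliplatin over topotecan/D5W (adjusted p = 0.00215, limma) and by 0.47 ± 0.13 for oxaliplatin/topotecan over D5W/topotecan (adjusted p = 0.00478). Against the sum of the single-agent changes topotecan/oxaliplatin was higher by 1.08 ± 0.16 (adjusted p = 5.34e-06) and oxaliplatin/topotecan by 0.93 ± 0.19 (adjusted p = 4.44e-04), so the falls were smaller than the sum on the log2 scale.

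Gadd45g, a family member that acts on the p38 and JNK kinase pathways, was above vehicle in every rat of 15 of 18 comparisons and passed in 8. In oxaliplatin/topotecan at 1 h it was at 8.07, 8.64, 10.03 and 8.11, against 7.30, 6.89, 7.38 and 6.99 in D5W/NaCl, and rat 67 held the 10.03. The rise was 1.57 ± 0.27 (adjusted p = 6.8e-06, limma). D5W/topotecan had 7.68, 7.92, 8.17 and 9.23, a rise of 1.11 ± 0.27 (adjusted p = 0.00103) that became 0.78 (adjusted p = 0.0168) without rat 92. NaCl/oxaliplatin had 7.62, 7.66, 9.09 and 7.34, the high value being that of rat 79, and did not pass (0.59 ± 0.21, adjusted p = 0.168). In a fit of the treated group with its vehicle alone, the Gadd45g calls of oxaliplatin/topotecan (adjusted p = 0.0111) and D5W/topotecan (adjusted p = 0.0154) at 1 h were lost. That fit called 4 differences that did not pass with all groups, those of topotecan/D5W (0.61, adjusted p = 0.00301), D5W/topotecan (0.72, adjusted p = 0.00237) and NaCl/oxaliplatin (0.60, adjusted p = 0.00718) at 6 h and oxaliplatin/NaCl at 24 h (0.68, adjusted p = 0.00266).

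**Figure D3:**
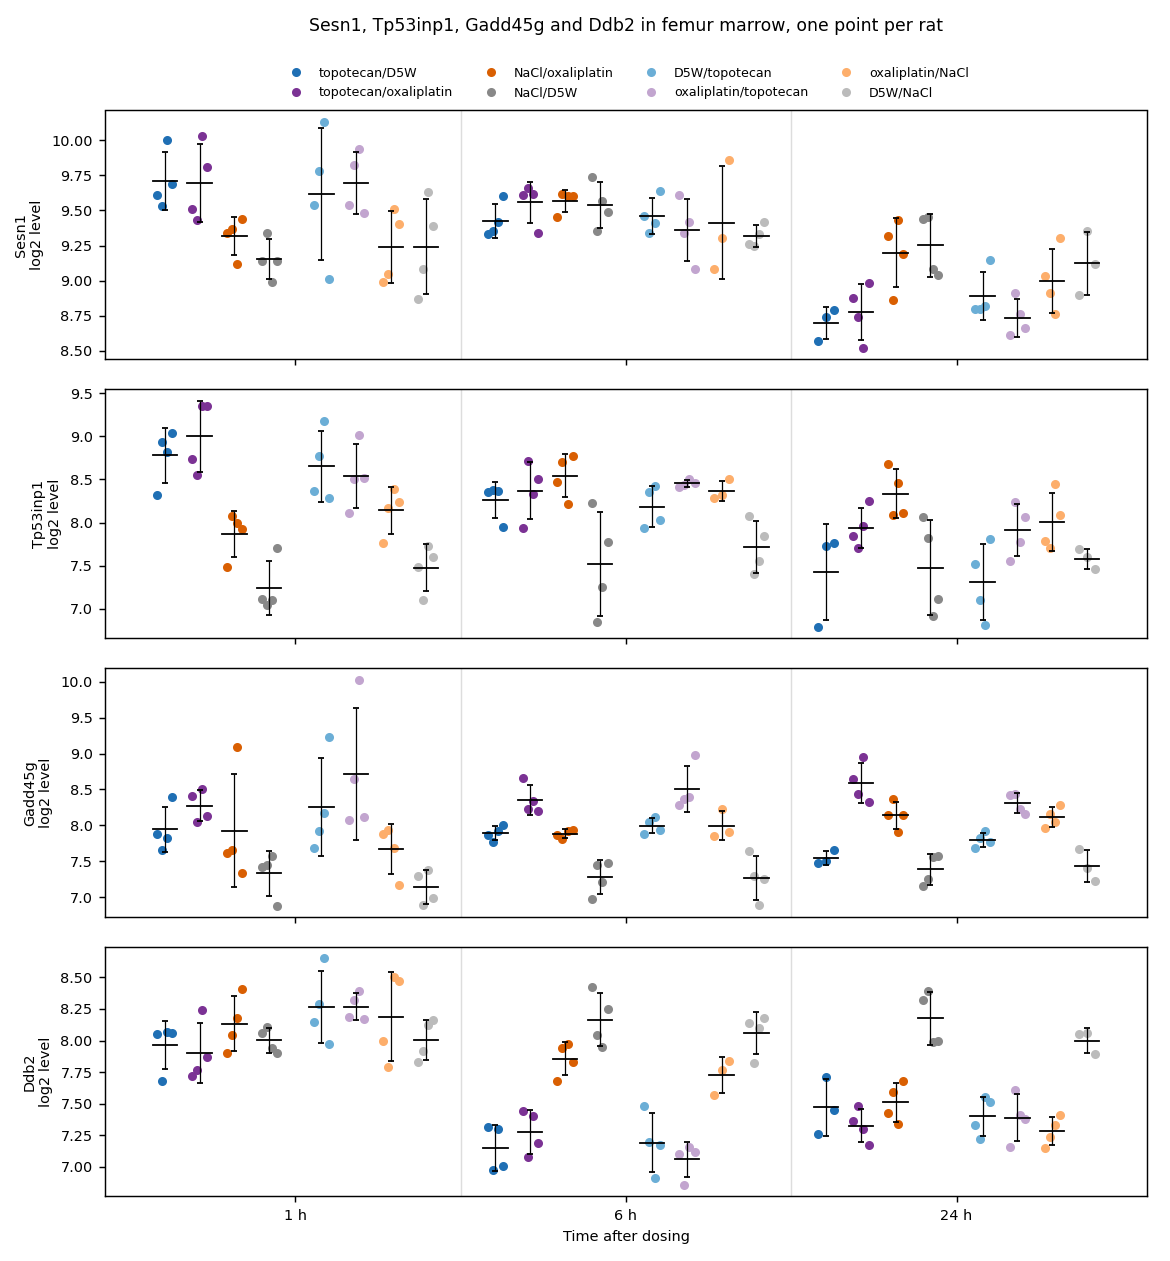
Log2 array level of Sesn1, Tp53inp1, Gadd45g and Ddb2 in each rat (points) by treatment and time, with the group mean (line) and SD (bar); each vehicle group stands to the right of the treatments set against it. The single high rats of Gadd45g at 1 h (10.03, 9.23 and 9.09) and the low Ddb2 levels from 6 h can be read here.

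The combinations held Gadd45g up at all times. In topotecan/oxaliplatin at 24 h it was at 8.65, 8.44, 8.95 and 8.32 and in NaCl/oxaliplatin at 8.14, 8.36, 7.91 and 8.15, against 7.15, 7.26, 7.56 and 7.58 in NaCl/D5W, without overlap. The rises were 1.20 ± 0.21 (adjusted p = 5.22e-06, limma) in topotecan/oxaliplatin and 0.75 ± 0.21 (adjusted p = 0.00232) in NaCl/oxaliplatin, the NaCl/oxaliplatin call being lost without rat 78 or 11. Topotecan/D5W, at 7.47, 7.51 and 7.66, did not pass, and topotecan/oxaliplatin was 1.04 ± 0.23 above it (adjusted p = 3.82e-04). Oxaliplatin/topotecan was higher by 0.88 ± 0.29 (adjusted p = 0.00806), a call lost without rat 65, 66, 71, 18 or 24 and with the code number block (adjusted p = 0.0228).

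Ddb2, the damage-recognition subunit of the UV-DDB complex, is listed among p53 targets mainly from human cells, and here it was never higher than vehicle at an adjusted p under 0.01. At 1 h the 6 differences lay between -0.10 and 0.26. Under a second quantile normalization oxaliplatin/topotecan (0.49, adjusted p = 6.7e-04) and D5W/topotecan (0.37, adjusted p = 0.0093) were higher at 1 h. At 6 h it was at 7.32, 6.98, 7.30 and 7.01 in topotecan/D5W and at 7.44, 7.08, 7.40 and 7.19 in topotecan/oxaliplatin, against 8.42, 8.04, 7.95 and 8.25 in NaCl/D5W. It was at 7.48, 7.20, 6.91 and 7.17 in D5W/topotecan and at 7.10, 6.86, 7.16 and 7.12 in oxaliplatin/topotecan, against 8.14, 7.82, 8.10 and 8.18 in D5W/NaCl. No rat given topotecan overlapped its vehicle.

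The 6 h falls of Ddb2 were -1.02 ± 0.13 (adjusted p = 1.85e-08, limma), or 0.495 times vehicle, in topotecan/D5W and -0.89 ± 0.13 in topotecan/oxaliplatin, and -0.87 ± 0.14 in D5W/topotecan. In oxaliplatin/topotecan the level was 0.5 times that of vehicle (adjusted p = 1.08e-07, limma). Oxaliplatin/NaCl (-0.33 ± 0.15, adjusted p = 0.103) and NaCl/oxaliplatin (-0.31 ± 0.13, adjusted p = 0.0663) did not pass, and both combinations were lower than the oxaliplatin single agent of their order, by -0.67 ± 0.15 for oxaliplatin/topotecan and -0.58 ± 0.13 for topotecan/oxaliplatin. Neither direct contrast of topotecan alone with oxaliplatin alone passed for Ddb2 at 6 h. At 24 h all 6 treatments were lower, by -0.60 to -0.85, and every treated rat lay below every vehicle rat. At 6 h the erythroid markers lower than vehicle numbered 4 of 7 under topotecan/D5W and topotecan/oxaliplatin, 1 under D5W/topotecan and 2 under oxaliplatin/topotecan, against 2 under oxaliplatin/NaCl and 1 under NaCl/oxaliplatin. Their part in the Ddb2 result was not tested.

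**Figure D4:**
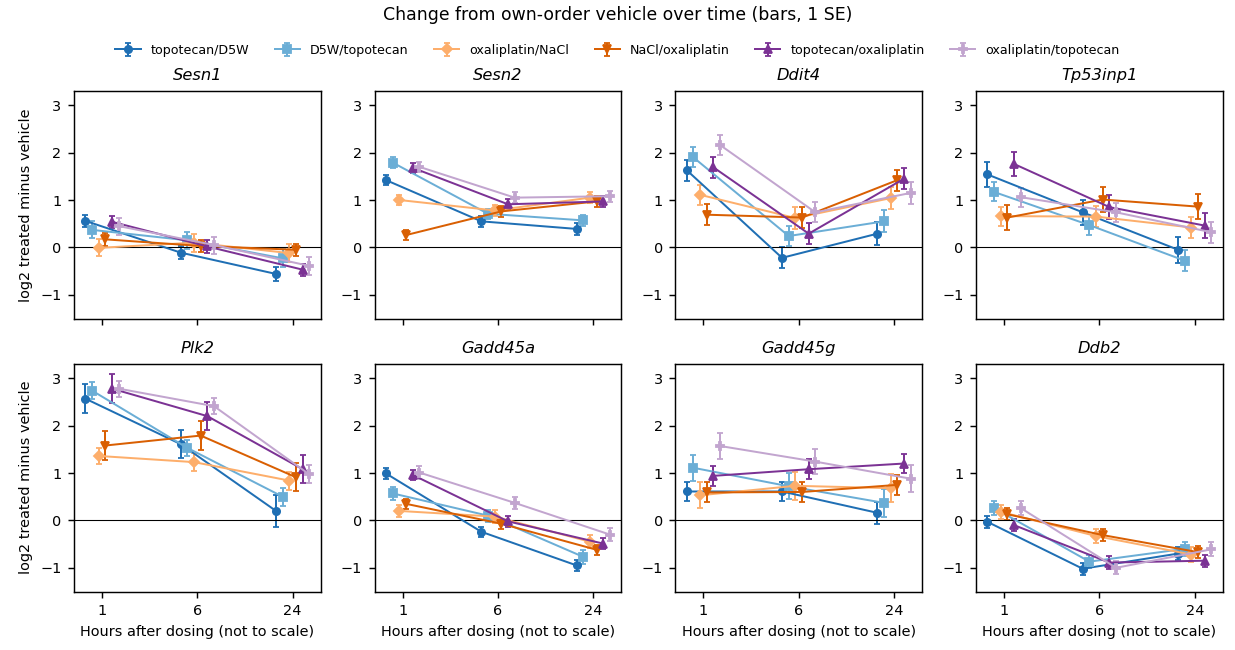
Log2 difference from own-order vehicle at 1, 6 and 24 h for each gene and treatment, with bars of 1 SE. Gadd45a and Ddb2 end below 0 in all 6 treatments, Sesn2 ends above 0 in all, and the topotecan lines of Ddit4 drop between 1 and 6 h.

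The change from vehicle differed between 24 h and 1 h in 30 of 48 gene and treatment pairs, 29 lower at 24 h and 1 higher, where 16.6% and 20.9% of all probe sets were lower and higher. Gadd45a and Ddb2 were lower at 24 h than at 1 h in all 6 treatments, Sesn2 and Plk2 in the 4 that held topotecan. Over all 3 pairs of times 54 differences passed, against 24.4% of all probe sets. In the vehicle rats themselves 0 of 48 differences between times passed in limma, against 0.156% of all probe sets.

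The combinations were set directly against their single agents, and 18 of 96 pairs were higher and 2 lower, against 3.53% and 10.6% of all probe sets over the same comparisons. At 1 h all 10 of the higher pairs were against oxaliplatin alone. Among them Sesn2 was 1.41 ± 0.11 higher in topotecan/oxaliplatin than in NaCl/oxaliplatin (adjusted p = 3.6e-13, limma) and Plk2 1.41 ± 0.17 higher in oxaliplatin/topotecan than in oxaliplatin/NaCl (adjusted p = 2.26e-08). Against topotecan alone at 1 h the differences ran from -0.11 to 0.47 and none passed, and the largest, for Gadd45g, was 0.47 ± 0.27. At 24 h all 6 higher pairs were against topotecan alone (Sesn2 and Gadd45a in both orders, Ddit4 and Gadd45g in topotecan/oxaliplatin), and none was against oxaliplatin alone.

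Departures from the sum of the single-agent changes passed in 4 of 48 pairs, against 5.41% of all probe sets. Besides Gadd45a at 24 h, they were Sesn2 (-1.09 ± 0.16, adjusted p = 6.43e-05, limma) and Plk2 (-1.32 ± 0.25, adjusted p = 0.00361) in oxaliplatin/topotecan at 1 h, where the combination rose less than the sum. Topotecan and oxaliplatin alone, given first or second, differed in 5 of 48 pairs, against 7.30% of all probe sets. At 1 h topotecan/D5W exceeded oxaliplatin/NaCl for Plk2, as given above, and Gadd45a (0.79 ± 0.17), and D5W/topotecan exceeded NaCl/oxaliplatin for Sesn2 (1.53 ± 0.16) and Ddit4 (1.21 ± 0.31). That count fell to 3 without rat 42 or 47 of oxaliplatin/NaCl at 24 h, and to 3 without the arrays high in muscle genes.

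Infusion order made no called difference in any of the 72 pairs, against 2.45% of all probe sets. Nearly all the probe sets called for order were called at 1 h, 606 higher and 918 lower in topotecan/D5W than in D5W/topotecan and 638 higher and 596 lower in topotecan/oxaliplatin than in oxaliplatin/topotecan, with 0 or 1 in each other comparison. The members' estimates lay between -0.64 and 0.73 on the log2 scale. Limits of 2 standard errors left out 0 in some comparisons, at 1 h for Sesn2 in oxaliplatin/NaCl minus NaCl/oxaliplatin (0.73, limits 0.42 and 1.05, adjusted p = 0.0588, limma) and in topotecan/D5W minus D5W/topotecan (-0.37, limits -0.68 and -0.05, adjusted p = 0.0905). They also left out 0 for Gadd45a in topotecan/D5W minus D5W/topotecan at 1 h (0.43, limits 0.09 and 0.77, adjusted p = 0.0632) and in topotecan/oxaliplatin minus oxaliplatin/topotecan at 6 h (-0.38, limits -0.72 and -0.05, adjusted p = 0.504), narrowly so in topotecan/D5W minus D5W/topotecan at 6 h (-0.34 ± 0.17), and for Tp53inp1 in topotecan/oxaliplatin minus oxaliplatin/topotecan at 1 h (0.70, limits 0.03 and 1.37, adjusted p = 0.143). A p that missed the threshold does not show that order had no effect. With the mean of all probe sets of a gene, or without rat 74 of NaCl/oxaliplatin at 1 h, 1 pair passed.

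Rats of each group carried lower or higher animal numbers, which split every group into 2 sets. In the lower numbers alone 27 pairs were higher at 1 h, 14 at 6 h and 16 at 24 h, and in the higher numbers alone 22, 11 and 9, with 4 pairs lower at 6 h in either set and 10 and 7 lower at 24 h. With the code number in the sample titles, whose meaning the labels do not give, as a random block the higher pairs numbered 28, 17 and 16. At 1 h and at 6 h the combinations, NaCl/oxaliplatin and D5W/topotecan shared no code number with their vehicles. For them the block cannot separate treatment from code number at those times.

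Likeness of pattern was measured across the 24 group means. The 3 genes with the highest Pearson r were Cdkn1a (0.957), Phlda3 (0.951) and Ier2 (0.942) for Sesn2, Bbc3 (0.945), Inka2 (0.941) and Eola2 (0.928) for Ddit4, Mdm2 (0.970), Aen (0.941) and Ccng1 (0.927) for Tp53inp1, and Jun (0.948), Enc1 (0.945) and Hexim1 (0.939) for Plk2. For Gadd45g they were Ier5 (0.922), Nfkbia (0.919) and Cd69 (0.910), for Gadd45a Ccrl2 (0.950), Spef1 (0.941) and Plekhj1 (0.938), for Sesn1 C4h2orf68 (0.930), Sertad2 (0.929) and Plekhj1 (0.929), and for Ddb2 Mrpl14 (0.963), the cell cycle factor E2f1 (0.959) and Trpc2 (0.956). The groups share treatments, times and normalization, so these values describe likeness only. Among the members themselves the closest pairs were Plk2 and Tp53inp1 (0.91), Sesn2 and Ddit4 (0.90) and Sesn1 and Gadd45a (0.89), and Ddb2 stood apart, between -0.41 with Gadd45g and 0.43 with Gadd45a.

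Other p53 targets were measured for 12 of 23 genes listed. At 1 h 11 of the 12 were higher in topotecan/D5W and topotecan/oxaliplatin, 10 in D5W/topotecan and oxaliplatin/topotecan, 9 in oxaliplatin/NaCl and 2 in NaCl/oxaliplatin, and list medians ran from 0.60 to 2.03, against -0.14 to -0.01 for all probe sets. In the topotecan-holding treatments 7.21% to 9.77% of all probe sets were higher at 1 h, in oxaliplatin/NaCl 0.575% and in NaCl/oxaliplatin 0.136%. At 24 h 4 to 9 of the 12 p53 targets were higher, with medians from 0.19 to 0.92, and 1 to 2 were lower. Of all probe sets 16.1% to 25.9% were higher at that time and 17.3% to 35.2% were lower. The smallest count, 4, was that of topotecan/D5W. Gdf15, a secreted stress cytokine, was higher in all 18 comparisons, by 1.33 in D5W/topotecan at 24 h at the least and by 4.88 in topotecan/oxaliplatin at 1 h at the most. Cdkn1a (p21) was 3.04 higher in topotecan/oxaliplatin at 1 h and 3.17 higher at 24 h, and the p53 targets Aen, a nuclease, and Phlda3, an Akt inhibitor, were 2.79 and 2.35 higher in topotecan/oxaliplatin at 1 h.

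Family relatives gave 5 of 8 genes measured. At 6 h 2 of the 5 were higher in every treatment except oxaliplatin/NaCl, where 1 was, so rises were not confined to the combinations. The other 3 were lower in every topotecan-holding treatment, and 1 was lower in each oxaliplatin single agent. In the topotecan-holding treatments 14.1% to 17.0% of all probe sets were higher at 6 h and 20.4% to 27.6% were lower. In oxaliplatin/NaCl 3.78% were higher and 7.25% lower, and in NaCl/oxaliplatin 5.54% and 9.69%. Gadd45b was higher at 6 h by 1.08 in topotecan/oxaliplatin and 1.41 in oxaliplatin/topotecan. Tp53inp2 was higher in all topotecan-holding treatments at 1 h and in all 6 at 6 and 24 h. Plk1, the mitotic kinase, was lower in 5 of 6 treatments at 1 h and in all 6 later, by -2.09 in topotecan/oxaliplatin at 24 h, and Plk4, the centriole kinase, was lower in all 6 at 24 h. These are relatives of Plk2 by sequence, and the medians of the list lay between -0.69 and 0.13.

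Of 15 integrated stress response genes measured (of 16), 7 were higher at 1 h in topotecan/oxaliplatin (9.77% of all probe sets), 5 in oxaliplatin/topotecan (7.21%), 4 in topotecan/D5W (9.18%), 4 in D5W/topotecan (7.67%), 2 in oxaliplatin/NaCl (0.575%) and 1 in NaCl/oxaliplatin (0.136%), and 0 to 4 were lower. At 24 h 0 to 3 were higher and 2 to 8 lower, the 8 in topotecan/oxaliplatin, where 35.2% of all probe sets were lower. The transcription factor Atf3 was 2.66 higher in topotecan/oxaliplatin and 2.99 higher in oxaliplatin/topotecan at 1 h, and Ddit3 (CHOP) was higher in 5 of 6 treatments at that time, while Asns, the asparagine synthetase, was lower in all 6 at 24 h, by -2.34 in oxaliplatin/topotecan. Among 7 hypoxia genes measured of 10, 1 to 5 were higher at 6 h, the 1 in oxaliplatin/NaCl, where 3.78% to 17.0% of all probe sets were. At that time 1 was lower in each topotecan-holding treatment and 0 in either oxaliplatin single agent. Adm was higher in all 6 treatments at 6 h, by 2.43 in oxaliplatin/topotecan. At 24 h 1 to 5 of the 7 were higher (16.1% to 25.9% of all probe sets) and 0 to 1 lower. Vegfa was 0.80 higher in oxaliplatin/NaCl and 0.98 higher in NaCl/oxaliplatin at 24 h. Of 5 glucocorticoid genes measured of 6, at 1 h 1 was higher in topotecan/D5W, 2 in D5W/topotecan, 3 in topotecan/oxaliplatin and 2 in oxaliplatin/topotecan, with medians from 0.29 to 0.56, and 0 in either oxaliplatin single agent. The 1 lower gene in each of these 4 treatments was Fkbp5, by -0.98 to -1.16. Of all probe sets 7.21% to 9.77% were higher in these 4 treatments at 1 h and 19.5% to 32.9% were lower. In oxaliplatin/NaCl and NaCl/oxaliplatin 0.575% and 0.136% were higher, and the glucocorticoid list medians were 0.32 and 0.07. The list was not tested against these shares. Tsc22d3 was higher in D5W/topotecan and oxaliplatin/topotecan at 1 h and in NaCl/oxaliplatin and both combinations at 24 h.

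Among 14 of 21 mTORC1 pathway genes, 4 were lower in each topotecan-holding treatment at 1 h, where 19.5% to 32.9% of all probe sets were lower, and 0 in either oxaliplatin single agent, where 0.654% and 0.0239% were. These shares are near those of all probe sets. Mtor was lower in these 4 treatments at 1 h, by -1.06 in topotecan/oxaliplatin at the most, and in all 6 at 6 h, and Deptor, an mTOR inhibitor, was lower in the same 4 at 1 h. Of 10 nucleotide excision repair genes measured of 20, 9 were lower at 1 h in topotecan/oxaliplatin (32.9% of all probe sets), 5 in topotecan/D5W (26.0%), 5 in oxaliplatin/topotecan (27.6%) and 0 in each of the other 3 treatments. At 24 h 8 were lower in oxaliplatin/topotecan (33.3% of all), 5 in topotecan/oxaliplatin (35.2%), 6 in NaCl/oxaliplatin (30.2%), 5 in oxaliplatin/NaCl (26.4%) and 2 in each topotecan single agent (17.3% and 18.3%). Ddb1, the partner of Ddb2, was lower in all 6 treatments at 24 h, by -0.36 to -0.69, as was Cul4a, which works with it. Of 5 p38 and JNK kinase genes measured of 11, none was higher at 1 or 6 h, and Mapk14 (p38 alpha) was lower in all topotecan-holding treatments at 1 h, by -0.39 to -0.68.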

How the data were processed

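RNA of 93 rat bone marrow samples had been hybridised to 1-colour Affymetrix rat genome arrays. The authors deposited log2 values after RMA (background correction, quantile normalization and probe set summary, named in the submitters' processing notes) and a filter for consistent probe sets (pvac), and left out 1 outlying array; versions are not given in the sources used here. Quantile normalization sets arrays to a common distribution, so changes are relative to the other probe sets. Arrays carry no read depth, and the number of arrays limits the precision.

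Of 12560 probe sets, 28 control probe sets were removed. Of the 12532 tested, 10002 had 1 gene symbol in the platform annotation, 292 several and 2238 none. Differences were fitted with limma 3.58.1 (R 4.3.3, statmod 1.5.0) with lmFit and eBayes in 2 fits by drug order, as the study's methods did, with order and drug contrasts in 1 fit of all 8 treatments. P-values were adjusted by Benjamini-Hochberg over all probe sets and called under 0.01. The code was tested on simulated data. Errors after ± are standard errors.

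The named genes were the 8 members, up to 4 called genes of each pathway list with the largest mean absolute change, and the 3 genes most like each member by Pearson r. The members and lists were chosen with earlier results of these data known. Separate rats were the replicates. Alternatives covered scaling, thresholds, blocks, probe set choice, muscle-high arrays, vehicle pooling, subsets of rats and leaving out each rat.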

Additional observations from a re-analysis of the deposited data

Results flagged for a closer look

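The change from vehicle differed between 24 h and 1 h, by a limma contrast at an adjusted p under 0.01, in 30 gene and treatment pairs. All values here are the 24 h minus the 1 h difference on the log2 scale. In topotecan/D5W they were -2.36 for Plk2, -1.94 for Gadd45a, -1.59 for Tp53inp1, -1.34 for Ddit4, -1.11 for Sesn1, -1.03 for Sesn2 and -0.67 for Ddb2. In D5W/topotecan they were -2.24 for Plk2, -1.45 for Tp53inp1, -1.36 for Ddit4, -1.34 for Gadd45a, -1.23 for Sesn2 and -0.86 for Ddb2. In topotecan/oxaliplatin they were -1.70 for Plk2, -1.45 for Gadd45a, -1.30 for Tp53inp1, -1.02 for Sesn1, -0.75 for Ddb2 and -0.70 for Sesn2. In oxaliplatin/topotecan they were -1.80 for Plk2, -1.31 for Gadd45a, -1.02 for Ddit4, -0.87 for Ddb2, -0.84 for Sesn1 and -0.62 for Sesn2. Under oxaliplatin alone they were -0.65 for Gadd45a and -0.90 for Ddb2 in oxaliplatin/NaCl, and -0.97 for Gadd45a, -0.80 for Ddb2 and 0.71 for Sesn2 in NaCl/oxaliplatin.

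In 13 of 168 gene and group pairs of 4 rats, 1 rat stood apart from the other 3 by Dixon's ratio, where chance gives about 1 in 20. For Plk2 they were rat 73 of NaCl/oxaliplatin at 1 h (6.59, the others 8.50 to 8.65), rat 92 of D5W/topotecan at 1 h (9.80, the others 9.41 to 9.47), rat 57 of topotecan/oxaliplatin at 6 h (9.90, the others 8.69 to 8.81) and rat 76 of NaCl/oxaliplatin at 6 h (9.33, the others 8.31 to 8.47). For Sesn1 they were rat 58 of topotecan/oxaliplatin at 6 h (9.34), rat 75 of NaCl/oxaliplatin at 6 h (9.45) and rat 96 of D5W/topotecan at 24 h (9.15). For Sesn2 they were rat 49 of topotecan/oxaliplatin at 1 h (11.00) and rat 15 of D5W/NaCl at 6 h (9.22). For Tp53inp1 they were rat 34 of topotecan/D5W at 6 h (7.95) and rat 8 of NaCl/D5W at 1 h (7.71). Rat 82 of NaCl/oxaliplatin at 6 h stood at 11.93 for Gadd45a, and rat 26 of topotecan/D5W at 1 h at 7.68 for Ddb2.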

How the results depend on the processing

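No paired analysis was possible because each rat has its own number and gave 1 array, so no numbers are shared between groups. Sets of rats are shared between groups and were fitted as a block. Code numbers were fitted as a random block, but are only partly shared. At 1 h and at 6 h the combinations, NaCl/oxaliplatin and D5W/topotecan had no code number in common with the vehicles, topotecan/D5W or oxaliplatin/NaCl. Between these sides treatment and code number cannot be told apart at those times, and the random block cannot separate them. With the animal set as a block there were 20 higher pairs at 6 h, 7 drug differences and 6 departures from the sum. With the code number as a random block there were 6 drug differences, 6 departures from the sum and 47 time differences. No called difference from vehicle turned direction under the alternatives run. With a fold above 2 required as well, the higher pairs were 10 at 6 h and 8 at 24 h, the lower pairs 2 at 6 h and 0 at 24 h, combinations differed from single agents in 9 higher and 0 lower pairs, drugs in 3 and times in 30. In the higher animal numbers alone, with fewer rats, 11 pairs were higher at 6 h, 9 higher at 24 h and 7 lower at 24 h. At an adjusted p under 0.05 there were 7 departures from the sum, 9 drug differences and 1 time difference in vehicle rats. A second quantile normalization gave 8 drug differences, leaving out the arrays high in muscle genes gave 3, and the mean of all probe sets of a gene gave 1 order difference. Beside the calls given above for Plk2 and Gadd45g, a fit of a treatment with its vehicle alone ended those of Ddit4 in oxaliplatin/NaCl (adjusted p = 0.0111, limma), Gadd45a in D5W/topotecan (0.011) and Sesn1 in topotecan/oxaliplatin (0.0116) at 1 h, of Tp53inp1 in NaCl/oxaliplatin (0.0266) and topotecan/oxaliplatin (0.0326) at 6 h, and at 24 h of Sesn1 in topotecan/D5W (0.0106) and topotecan/oxaliplatin (0.0112), Sesn2 in D5W/topotecan (0.0103), Gadd45a in oxaliplatin/NaCl (0.0193) and Tp53inp1 in NaCl/oxaliplatin (0.0139). Where these alternatives do not by construction change the threshold or the number of rats, the cause was not tested.

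Leaving out 1 rat at a time gave 28 to 30 higher pairs at 1 h, 16 to 20 at 6 h and 15 to 19 at 24 h, 0 to 1 order differences, 3 to 6 drug differences, 3 to 6 departures from the sum, 49 to 57 time differences and 0 to 1 time differences in vehicle rats. Pooled vehicles, subsets by animal number and fits of a treatment with its vehicle alone gave no values for order, drug, sum or time. The brighter 50% of probe sets held only Sesn1, Sesn2, Ddit4 and Gadd45a. With 3 or 4 arrays a group, small changes can miss the threshold.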
